A study of Mus musculus with 9 samples.

Results

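10 genes of the Slit, Robo and semaphorin guidance system were examined in whole osteosarcoma (OS) tumors from genetically engineered mouse models (GEMMs). They are the ligands Slit2, Slit3, Sema3a, Sema4d and Sema7a and the receptors Robo1, Robo2, Nrp1, Nrp2 and Plxna1. The genes were chosen by symbol, with earlier results of these data known, and all 10 were among the 55367 genes of the deposited count table. Each of the 9 tumors is 1 column of the RNA-Seq table, 4 of them p53-driven (columns F187, F325, F331, F368) and 5 Myc-knockin (columns M351, M408, M9, M624, M664). The labels give the p53-driven genotype as Col2.3-Cre/TrpP53fl/+, in which the osteoblast-specific Col2.3 promoter drives Cre and 1 Trp53 allele is floxed. The Myc-knockin tumors carried the same p53fl/+ allele together with a Cre-dependent Lox-Stop-Lox (LSL) c-MycT58A allele. The floxed Trp53 allele was thus shared by both groups, and no tumor without it was compared.

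Slit ligands are secreted proteins that bind Robo receptors and steer axons and migrating cells. Secreted class 3 semaphorins bind neuropilin co-receptors, which signal through plexin-A receptors, whereas class 4 and class 7 semaphorins are attached to the membrane. In bone, Sema3a is a product of the osteoblast lineage that favors bone formation, and Sema4d is a product of osteoclasts that restrains osteoblasts.

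The libraries differed in depth and composition, and these differences touch the values below. The total count per tumor ran from 2716322 to 17073285. A set of 12 genes, here called satellite-repeat genes, was picked for being high in F187, M351, M408 and M9, not by repeat annotation. They took 23.2% to 81.0% of the counts in these 4 libraries and at most 0.0242% in the other 5 libraries. Rn7sk, a small nuclear RNA that is not polyadenylated, was at 3.47 and 6.35 CPM in M624 and M664, both Myc-knockin, and at 6545 to 10667 CPM in the other 7 libraries. Levels are given throughout as CPM, counts scaled to the TMM-normalized library size by edgeR, on which the floor of 3 counts corresponded to 0.114 to 2.39 CPM. The Myc transcript was measured as a check of the labels, at 43.5 to 67.1 CPM in the p53-driven tumors and 144 to 1045 CPM in the Myc-knockin tumors.

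Nrp2 and Sema4d were lower in the Myc-knockin tumors, and neither gene's values overlapped between the groups. These were the 2 of the 10 genes that were called, a call being an adjusted p under 0.05 with a fold change over 1.5 in edgeR's quasi-likelihood test. The other 8 overlapped between the groups, although the fitted log2 fold change (Myc-knockin minus p53-driven) was below 0 for each of the 10, from -2.57 for Nrp2 to -0.46 for Robo1, with a median of -1.02. In the same fit 43.8% of all 15365 genes tested were below 0, with a median of 0.14. Because the 10 were chosen with earlier results of these data known, this contrast is not a test of the set. For comparison, 461 genes were called lower (3.00% of those tested) and 348 higher (2.26%), and the groups did not overlap, irrespective of the test, for 1158 genes on the lower side (7.54%) and 832 on the higher side (5.41%). Without normalization beyond library size the median of all genes was 0.03 and that of the 10 was -1.17, a difference of -1.20, where TMM gave -1.16. In RNA from whole tumors, fewer cells that express a gene and less of its RNA per cell cannot be told apart.

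**Figure D1:**
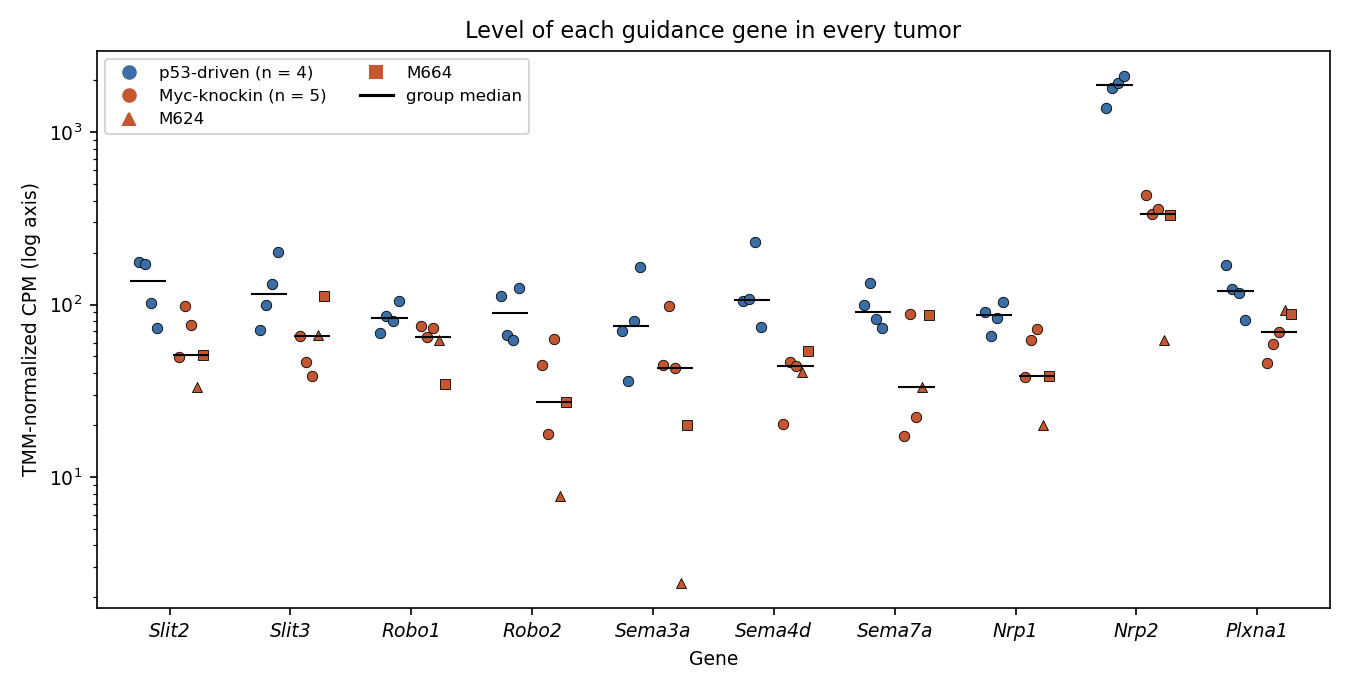
Level of the 10 guidance genes in each tumor in TMM-normalized CPM on a log axis, with p53-driven tumors in blue, Myc-knockin tumors in orange (M624 as a triangle, M664 as a square) and a black line at each group median. Nrp2 spans 1384 to 2117 CPM in the p53-driven tumors and 62.0 to 434.6 CPM in the Myc-knockin tumors, and Sema4d likewise has no overlap.

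Among the Slit ligands, Slit2 lies on chromosome 5 (mm10, 47983138 to 48307733, plus strand) and Slit3 on chromosome 11 (35121224 to 35708507, plus strand). Slit2 was at 176.2, 172.0, 102.1 and 72.9 CPM in F187, F325, F331 and F368, and at 49.9, 97.6, 75.7, 33.3 and 50.8 CPM in M351, M408, M9, M624 and M664. The p53-driven tumors F187, F325 and F331 lay above every Myc-knockin tumor, but F368 lay below M408 and M9. edgeR gave a log2 fold change of -1.09 (SE 0.38, adjusted p = 0.0985). The background that would be expected on Slit2 from the counts per kilobase on chemosensory receptor genes was 35.0% of the 81 Slit2 counts in M351 and 32.9% of the 95 in M9, against 4.03% in F187 and at most 0.714% elsewhere, and with this background subtracted the log2 fold change was -1.17.

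Slit3 followed another order within the groups. It was at 71.1, 99.8, 131.3 and 201.2 CPM in F187, F325, F331 and F368, and at 65.9, 46.3, 38.2, 66.3 and 111.6 CPM in M351, M408, M9, M624 and M664. F368, the lowest p53-driven tumor for Slit2, was thus the highest for Slit3, and M664 exceeded both F187 and F325. The log2 fold change was -0.93 (SE 0.38, edgeR adjusted p = 0.148). Per kilobase of transcript, the ratio of Slit3 to Slit2 ranged from 0.769 to 5.25 in the p53-driven tumors and from 0.904 to 4.18 in the Myc-knockin tumors, so the balance of the ligands varied as widely within a group as between them.

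Their receptors Robo1 and Robo2 both lie on chromosome 16, Robo1 from 72308306 to 73046095 on the plus strand and Robo2 from 73891839 to 74411825 on the minus strand. Robo2 was at 111.8, 66.6, 61.9 and 124.6 CPM in F187, F325, F331 and F368. In M351, M408, M9, M624 and M664 it was at 44.3, 17.8, 62.9, 7.70 and 27.0 CPM. The groups overlapped through M9 and F331 alone, whose values were 62.9 and 61.9 CPM, and 26.4% of the 79 counts in M9 were expected from the genomic background. The log2 fold change was -1.55 (SE 0.52), and the adjusted p was 0.0918 with edgeR, 0.0273 with DESeq2 and 0.0528 with limma-voom.

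Robo1 differed least. It was at 67.9, 85.9, 80.3 and 105.3 CPM in F187, F325, F331 and F368, and at 75.1, 64.8, 73.3, 62.3 and 34.4 CPM in M351, M408, M9, M624 and M664. M664 was the one tumor well below the rest. edgeR gave a log2 fold change of -0.46 (SE 0.28, adjusted p = 0.317). Per kilobase, Robo1 was at 0.690 to 1.47 times the level of Robo2 in the p53-driven tumors and at 1.32 to 9.20 times in the Myc-knockin tumors, M624 holding the highest ratio.

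The Slit genes also carry a microRNA that links them to their receptors by sequence. Mir218-1 lies within Slit2 (chr5:48223966-48223986, plus strand, for its mature 5p arm) and Mir218-2 within Slit3 (chr11:35616840-35616860, plus strand), outside the exons of both host genes. RefSeq (GRCm38.p6) gives the same mature 5p arm for both, shown here with its seed, bases 2 to 8, in capitals:

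mmu-miR-218-5p: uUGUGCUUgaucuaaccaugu

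The seed's complement, AAGCACA, was searched on the sense strand of the 3′ UTR of each gene's longest complete protein-coding transcript (GENCODE M21). 3 of the 10 genes held it, Slit2 at 2 places, Robo1 at 1 and Robo2 at 2, against 13.6% of 20861 protein-coding genes with a 3′ UTR. A longer 3′ UTR is likelier to hold a match, and the 13.6% was not matched for length, so the shares are not comparable. The 3′ UTR had 3492 bases in Slit2, 1733 in Robo1 and 3987 in Robo2, and 365 (Slit3) to 3062 (Plxna1) in the others. The sites are shown with 8 bases on either side and the match in capitals, and the first Robo2 site and the Robo1 site are followed by an A:

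Slit2 (chr5:48304543-48304549, plus strand): actagcagAAGCACAtctacaag
Slit2 (chr5:48306846-48306852, plus strand): tattagcaAAGCACAtaaattaa
Robo1 (chr16:73045348-73045354, plus strand): ggttttaaAAGCACAatcactaa
Robo2 (chr16:73895359-73895365, minus strand): ttggtgatAAGCACAaatctcta
Robo2 (chr16:73893033-73893039, minus strand): gcagacccAAGCACAgcttcttt

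A match is a description of the sequence and not evidence of a site in use. The hairpin genes themselves had 0 to 3 counts in each library, and mature microRNAs are not measured by this assay.

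Of the semaphorins, Sema4d (chromosome 13, 51685529 to 51793747, minus strand) was the one called. It was at 105.5, 107.2, 231.6 and 74.3 CPM in F187, F325, F331 and F368, and at 20.3, 46.3, 43.8, 40.8 and 53.4 CPM in M351, M408, M9, M624 and M664. F331 stood above the other tumors, and the lowest p53-driven tumor, F368, exceeded the highest Myc-knockin tumor, M664. The means were 129.6 ± 69.7 CPM (SD, n = 4) in the p53-driven and 40.9 ± 12.4 CPM (SD, n = 5) among the Myc-knockin tumors, a 3.17-fold difference. The log2 fold change was -1.66 (SE 0.38, edgeR adjusted p = 0.0365). The call was lost without M624 and M664 (log2 fold change -1.75, edgeR adjusted p = 0.0667). Leaving out F187, M351, M408 and M9 ended it too (log2 fold change -1.54, edgeR adjusted p = 0.0790). With single tumors left out the log2 fold change ranged from -1.87 to -1.21, and the call was made in 3 of 9 fits, those without M408, M9 or M664.

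Sema3a (chromosome 5, 13125414 to 13602565, plus strand), the secreted ligand of neuropilin-1, varied most among the Myc-knockin tumors. It was at 69.9, 36.2, 80.7 and 164.4 CPM in F187, F325, F331 and F368, and at 44.3, 97.8, 43.0, 2.44 and 19.99 CPM in M351, M408, M9, M624 and M664. M624, with 64 counts, was the lowest tumor and F368 the highest, but M408 was the second highest of the 9. edgeR gave a log2 fold change of -1.09 (SE 0.76, adjusted p = 0.383). It was -0.41 without M624 and M664 (edgeR adjusted p = 0.631), -1.72 without M408 (edgeR adjusted p = 0.166) and -3.03 without F187, M351, M408 and M9 (edgeR adjusted p = 0.0749), and it was not called in any fit run.

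Sema7a (chromosome 9, 57940112 to 57962865, plus strand) is held to the cell surface by a glycolipid anchor and binds integrin and plexin-C1 receptors. It was at 99.5, 133.9, 82.6 and 73.2 CPM in F187, F325, F331 and F368, and at 17.2, 88.6, 22.3, 33.3 and 86.8 CPM in M351, M408, M9, M624 and M664. The Myc-knockin tumors fell into a higher pair, M408 and M664, within the p53-driven range, and 3 tumors below it. The log2 fold change was -0.95 (SE 0.49, edgeR adjusted p = 0.234).

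Of the receptors for semaphorins, Nrp2 (chromosome 1, 62703285 to 62818695, plus strand) showed the largest difference of the 10 genes. Neuropilin-2 is a co-receptor for Sema3f and for the lymphatic growth factor VEGF-C. Nrp2 was at 1384, 1807, 1926 and 2117 CPM in F187, F325, F331 and F368, and at 434.6, 333.3, 359.3, 62.0 and 332.8 CPM in M351, M408, M9, M624 and M664. Each p53-driven tumor lay far above each Myc-knockin tumor, and M624 lay far below the other Myc-knockin tumors. The means were 1809 ± 310.2 CPM (SD, n = 4) in the p53-driven and 304.4 ± 141.7 CPM (SD, n = 5) among the Myc-knockin tumors, a 5.94-fold difference. edgeR gave a log2 fold change of -2.57 (SE 0.52, adjusted p = 0.0266). It was -2.21 without M624 and M664 (edgeR adjusted p = 0.0294) and -3.27 when F187, M351, M408 and M9 were left out (edgeR adjusted p = 0.0286). With single tumors left out it ranged from -2.73 to -2.25 and was called in 6 of 9 fits, the exceptions being those without F325, F331 or F368, in which 8, 6 and 5 genes of the whole table were called. The genomic background expected on Nrp2 was at most 3.23% of its counts in any library.

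Nrp1 (chromosome 8, 128358604 to 128503363, plus strand) encodes neuropilin-1, the co-receptor for Sema3a and VEGF-A, and differed less. It was at 90.5, 65.5, 83.7 and 103.3 CPM in F187, F325, F331 and F368, and at 38.2, 62.3, 71.7, 20.1 and 38.3 CPM in M351, M408, M9, M624 and M664. The overlap came from M9, which exceeded F325. The log2 fold change was -0.91 (SE 0.35, edgeR adjusted p = 0.133). It moved to -0.52 without M624 and M664 (edgeR adjusted p = 0.281) and to -1.503 without F187, M351, M408 and M9, where it was called (edgeR adjusted p = 0.0364). Per kilobase, Nrp2 was 8.19 to 14.8 times as abundant as Nrp1 in the p53-driven tumors and 1.65 to 6.09 times in the Myc-knockin tumors, with no overlap.

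Plxna1 (chromosome 6, 89316314 to 89362620, minus strand) encodes plexin-A1, which pairs with neuropilins. It was at 169.8, 122.5, 116.6 and 81.3 CPM in F187, F325, F331 and F368, and at 45.5, 58.8, 69.3, 92.9 and 87.7 CPM in M351, M408, M9, M624 and M664. M624, the lowest tumor for 5 of the other genes, was the highest Myc-knockin tumor for Plxna1, M664 came next, and both exceeded F368. The log2 fold change was -0.78 (SE 0.30, edgeR adjusted p = 0.128), and limma-voom with quality weights called it (log2 fold change -1.11, adjusted p = 0.0370). Plxna1 shares 970 bases of exon with the antisense gene Gm26811, and the strand setting of the counting is not given in the sources used here, so reads on those bases may belong to either gene.

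**Figure D2:**
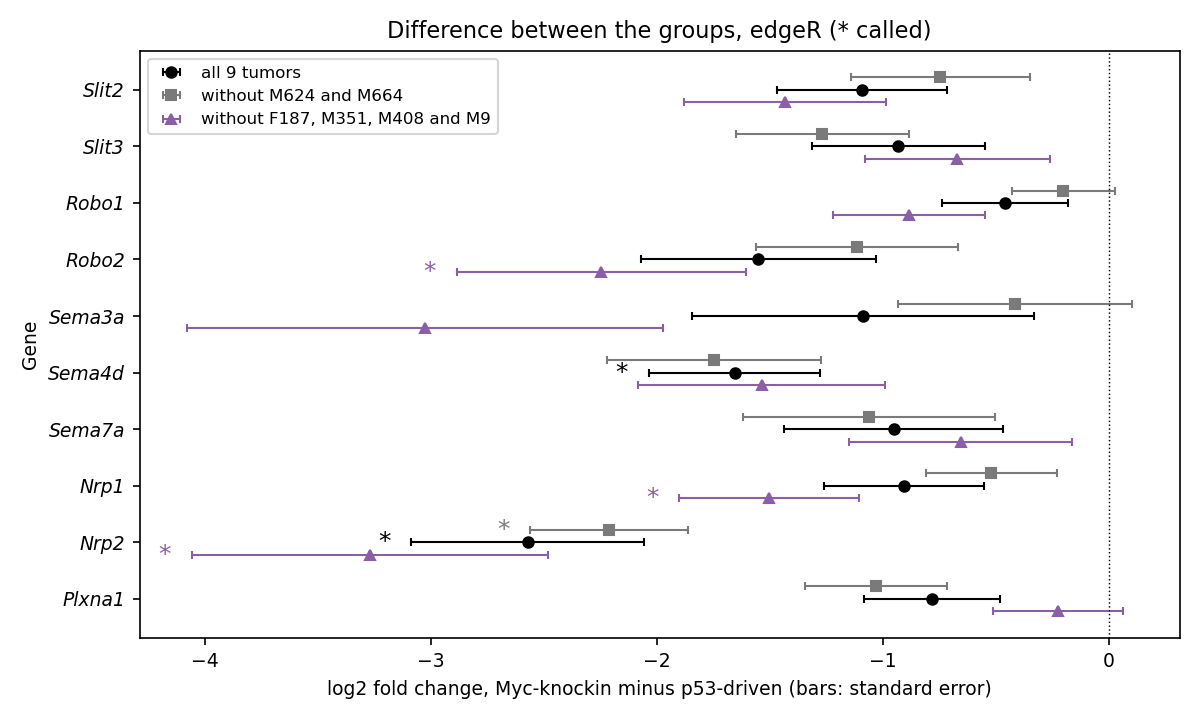
Log2 fold change of each gene from edgeR (Myc-knockin minus p53-driven) with its standard error as a bar, for all 9 tumors (black), without M624 and M664 (gray) and without F187, M351, M408 and M9 (purple), with an asterisk at each call. Every point lies below 0, and Nrp2, at -2.57, -2.21 and -3.27, is the one gene called in each of the fits.

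Other tools made slightly different calls among the 10. DESeq2 called Nrp2, Sema4d and Robo2, where 1011 of the 17052 genes it tested were called lower (5.93%). Limma-voom with quality weights called Nrp2, Sema4d and Plxna1, where 1000 genes were called lower (6.51%). Scaling by library size alone called none of the 10, with 86 genes called lower in the whole table (0.560%). Without M624 and M664 only Nrp2 was called, where 402 of 14308 genes were called lower (2.81%), and without F187, M351, M408 and M9 the calls were Nrp1, Nrp2 and Robo2, where 2001 of 16495 genes were called lower (12.1%).

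Set per kilobase of the longest complete protein-coding transcript, Nrp2 was the most abundant of the 10 genes in both groups. Its median was 277.7 CPM per kilobase in the p53-driven tumors and 49.6 CPM per kilobase in the Myc-knockin tumors. On another measure, the group median of CPM per kilobase of all annotated exons, Nrp2 was ranked among 15359 of the genes tested. It was at percentile 99.2 in the p53-driven tumors and 94.6 in the Myc-knockin tumors. In the p53-driven tumors Sema7a came next at 27.6 and Robo2 last at 10.4 CPM per kilobase, and apart from Nrp2 each gene's range overlapped that of the next in this order. In the Myc-knockin tumors Slit3 came next at 12.6 and Robo2 was again last at 3.15 CPM per kilobase, and here even the range of Nrp2 overlapped that of Slit3. Nrp2 made up 55.9% to 63.8% of the summed level of the 10 genes in the p53-driven tumors and 13.2% to 49.6% in the Myc-knockin tumors. Without Nrp2 the sum was 157.9 to 179.7 CPM per kilobase in the p53-driven and 60.6 to 106.8 in the Myc-knockin tumors.

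The tumor with the lowest value differed between genes. M624 was the lowest of the 9 tumors for 5 of the 10 genes, namely Slit2, Robo2, Sema3a, Nrp1 and Nrp2, M351 for 3, and M9 and M664 for 1 each. No p53-driven tumor was the lowest for any gene. Among the p53-driven tumors, F368 was the highest for 6 genes and the lowest for the other 4.

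As the Myc-knockin tumors carry an added Myc allele, the start regions of the 10 genes were searched for the canonical E-box CACGTG, the sequence that Myc with its partner Max binds. RefSeq (GRCm38.p6) gave promoters, taken as 250 bases before to 50 after a start, for 9 of the 10 genes, 13 promoters in all and none for Plxna1. For Robo1, Sema3a and Sema4d each RefSeq promoter lay far inside the span that GENCODE gives the gene. The Nrp1 window began just inside its span, at 128358823. The outermost GENCODE starts of these genes were therefore not searched. The E-box reads the same on both strands and was present in 1 of the 13, against 7.15% of 32851 promoters of the same length. It lay 18 bases before the most upstream Robo2 start in RefSeq, which lies outside the span that GENCODE gives the gene, and the promoter at the edge of that span (chr16:74411826-74412075, minus strand) had none. The 250 bases before that start and before the Nrp2 start are shown, the first for the E-box, in capitals, and the second because Nrp2 differed most and has none:

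Robo2 (chr16:75447294-75447543, minus strand): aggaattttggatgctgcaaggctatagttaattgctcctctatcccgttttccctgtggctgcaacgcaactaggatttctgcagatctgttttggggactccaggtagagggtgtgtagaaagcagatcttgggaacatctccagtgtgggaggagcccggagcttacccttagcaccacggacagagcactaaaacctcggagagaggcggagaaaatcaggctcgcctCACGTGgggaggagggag
Nrp2 (chr1:62703067-62703316, plus strand): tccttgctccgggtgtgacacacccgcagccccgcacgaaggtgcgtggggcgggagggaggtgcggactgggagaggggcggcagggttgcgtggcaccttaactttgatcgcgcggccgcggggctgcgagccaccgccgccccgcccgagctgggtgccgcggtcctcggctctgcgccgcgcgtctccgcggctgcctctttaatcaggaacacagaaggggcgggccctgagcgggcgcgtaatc

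The absence of these letters from a window of 300 bases says nothing about binding elsewhere.

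Among 77 other genes of the same systems, 2 were called lower and 0 higher of the 68 that passed the filter, where 3.00% and 2.26% of all genes tested were called. The list held the other Slit, Robo, semaphorin, plexin and netrin genes and cytoplasmic partners of these receptors. Of the 68, 42 had a log2 fold change below 0 and 26 above, with a median of -0.24, and 20 had an unadjusted p under 0.05, as did 4112 of all genes tested (26.8%). By family, the other class 3 semaphorins had 3 of 6 below 0, the other class 4 semaphorins 2 of 5, the other class 5 to 7 semaphorins 2 of 5, and the other plexins and neuropilins 5 of 7, and none of these was called. In either direction limma-voom, with the same filter, called 13 of the 68, where it called 10.8% of all genes it tested. DESeq2, with another filter, called 12 of the 77 listed, not all of which it need have tested, where it called 13.6% of all genes it tested.

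The genes called act inside the cell. Enah, an actin regulator that acts downstream of Robo receptors, was at 263.5, 257.9, 241.6 and 247.0 CPM in F187, F325, F331 and F368, and at 95.4, 107.1, 135.4, 68.2 and 93.6 CPM in M351, M408, M9, M624 and M664. Its values were close together in the p53-driven tumors and at a lower level in each Myc-knockin tumor. edgeR gave a log2 fold change of -1.34 (SE 0.26, edgeR adjusted p = 0.0260). The call was lost with library size alone, over all genes with at least 1 count, and when any 1 of the 4 p53-driven tumors was left out.

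Arhgef11, a guanine nucleotide exchange factor that binds plexin-B receptors, was at 72.4 to 101.3 CPM in the p53-driven and 31.0 to 55.8 CPM in the Myc-knockin tumors (log2 fold change -1.11, SE 0.26, edgeR adjusted p = 0.0377). Its call was made in 2 of the 9 fits with 1 tumor left out, those without M408 or M9, and was lost without M624 and M664 (log2 fold change -0.84, edgeR adjusted p = 0.0735), with upper-quartile normalization, with library size alone and over all genes with at least 1 count. Sema6a, named after its values were seen, was on the opposite side without overlap, at 14.2 to 21.6 CPM in the p53-driven and 26.2 to 39.8 CPM in the Myc-knockin tumors (log2 fold change 0.90, SE 0.25, edgeR adjusted p = 0.0595). It was called higher by DESeq2 (adjusted p = 0.0196) and limma-voom (adjusted p = 0.0198), and by edgeR where every tumor had to reach 10 counts (adjusted p = 0.0278) and without M624 and M664 (adjusted p = 0.0394). These were 4 of 12 alternatives, and Sema6a was called in 1 of the 9 fits with 1 tumor left out. Ntn1 and Rgma were likewise higher without overlap, as were 5.41% of all genes tested. Enah, Arhgef11, Plxnd1, Srgap2 and Fes were lower without overlap, as were 7.54% of all genes tested. Slit1, Robo3, Sema5b and Plxnb3 did not pass the count filter of the edgeR comparison, with at most 12, 15, 321 and 21 counts in any library, the 321 counts of Sema5b being in M624. Other fits that kept them called Sema5b (DESeq2) and Plxnb3 (edgeR without F187, M351, M408 and M9).

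**Figure D3:**
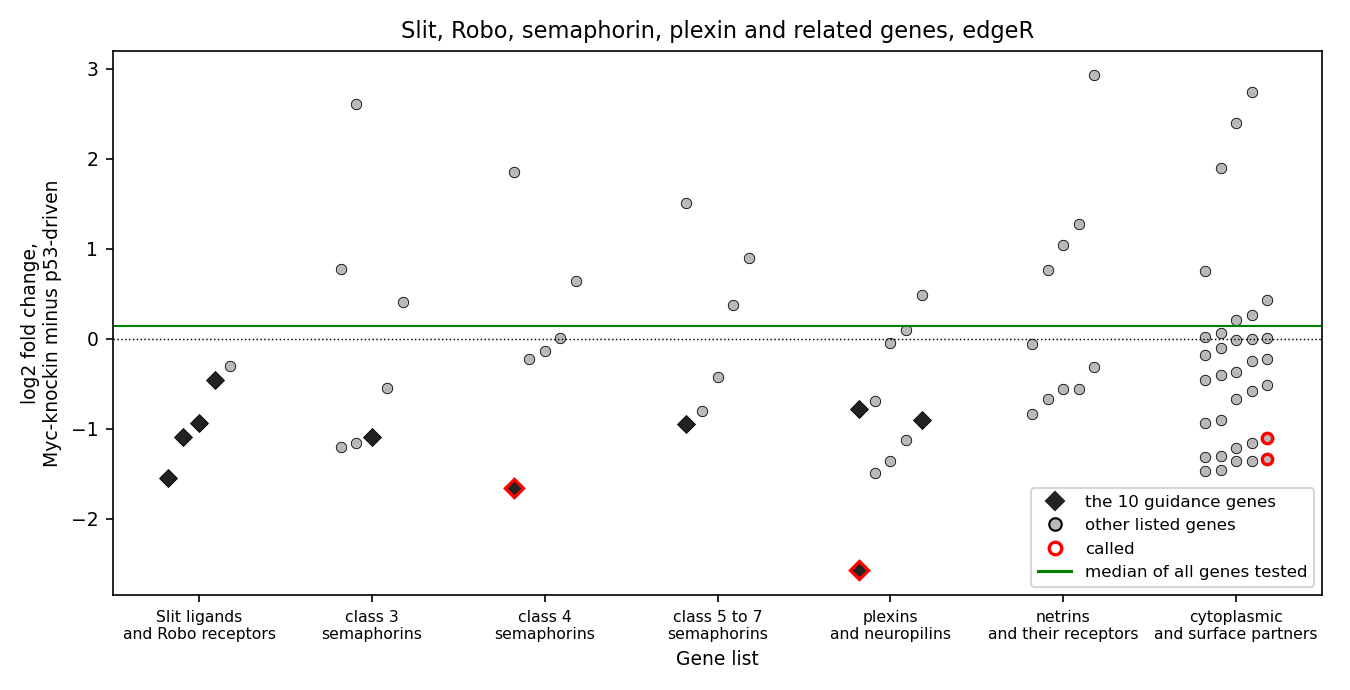
Log2 fold change from edgeR (Myc-knockin minus p53-driven) of each gene tested, by gene list, with the 10 guidance genes as black diamonds, other listed genes as gray circles, calls outlined in red, and a green line at the median of all genes tested, 0.14. The 10 lie below 0, whereas the other genes lie on both sides, with 42 below and 26 above.

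The summed levels of the osteoblast, osteoclast and macrophage marker lists were lower in each Myc-knockin tumor than in any p53-driven tumor. The 7 osteoblast markers, among them Col1a1, Runx2 and Sp7, summed to 46161 to 96290 CPM in the p53-driven and 2446 to 25678 CPM in the Myc-knockin tumors, with 1 of the 7, Bglap, called lower. Col1a1, the main collagen gene of bone, made up 52.8% to 96.0% of this sum, and without it the groups overlapped, at 3258 to 7166 CPM and 348 to 5310 CPM. Sp7, Alpl, Ibsp and Spp1 overlapped between the groups. The sum of the 7 was highest in F368 and lowest in M624, which were also the highest and lowest tumors for Nrp2, but M664, with the highest Myc-knockin sum, had the second lowest Nrp2 (332.8 CPM), and M351, with the highest Myc-knockin Nrp2, had a sum of 11337 CPM. Bglap was at 0 counts in M408, and the other osteoblast markers had counts in every tumor.

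The 6 osteoclast markers summed to 1386 to 8110 CPM in the p53-driven and 59.0 to 920.0 CPM in the Myc-knockin tumors, and 5 of the 6 were called lower. F331 had the highest and F368 the lowest sum among the p53-driven tumors, and F331 was also the highest and F368 the lowest of these for Sema4d. Across the Myc-knockin tumors M664 had the highest sum and the highest Sema4d, but M351, the lowest for Sema4d, had the second highest sum (222 CPM), and M9, with the lowest sum, had 43.8 CPM of Sema4d. The 5 macrophage markers summed to 542 to 1015 CPM in the p53-driven and 101 to 300.2 CPM in the Myc-knockin tumors, with 2 called lower, Csf1r and Cd68. Adgre1, Mrc1 and Aif1 overlapped between the groups, and Aif1 had a log2 fold change of 0.06 (edgeR adjusted p = 0.964).

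T and B lymphocytes can also express Sema4d, and the summed levels of their markers were low, at most 7.90 CPM for T cells and 5.53 CPM for B cells in the p53-driven tumors and 27.9 and 12.7 CPM in the Myc-knockin tumors. The 6 endothelial markers, which bear on Nrp1 and Nrp2, summed to 327 to 462 CPM in the p53-driven and 80.5 to 420 CPM in the Myc-knockin tumors, with none called and M624 the lowest. The 6 Schwann cell and neuron markers went the other way in sum, at 3.98 to 19.7 CPM in the p53-driven and 21.4 to 65.2 CPM in the Myc-knockin tumors, although none was called and Sox10, Snap25 and Elavl4 were at 0 in some tumors. The pericyte, chondrocyte, skeletal muscle and red cell sums overlapped between the groups. The red cell sum was nonetheless 205.2 CPM in M624 and 755.3 CPM in M664, against at most 26.7 CPM in the other libraries. Outside M624 and M664 the globin genes Hbb-bs and Hba-a1 were at 0 to 0.797 CPM, whereas Alas2 had counts in every tumor. The part of these cell types in the differences of the guidance genes was not tested.

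**Figure D4:**
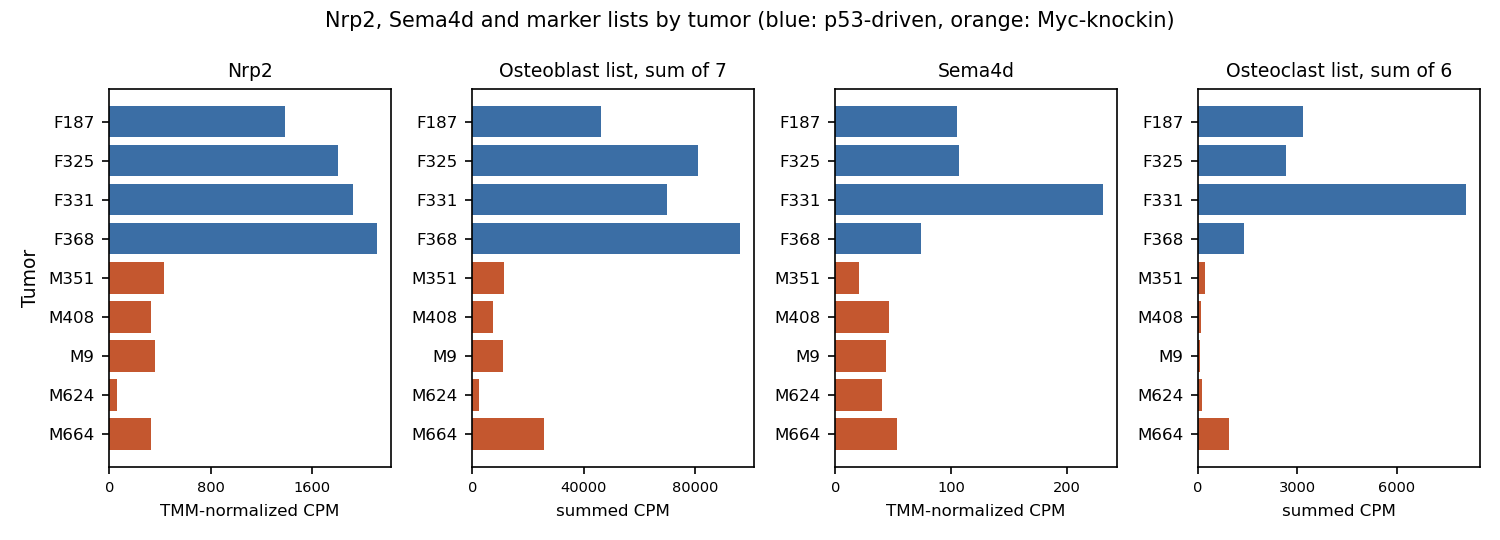
Nrp2 and Sema4d in TMM-normalized CPM beside the summed CPM of the osteoblast and osteoclast marker lists, as 1 bar per tumor from 0, with p53-driven tumors in blue and Myc-knockin tumors in orange. Each of the 4 measures is higher in every p53-driven tumor than in any Myc-knockin tumor, and F331 is highest for both Sema4d (231.6 CPM) and the osteoclast list (8110 CPM), but the order within the Myc-knockin tumors differs between each gene and the list beside it, and the osteoblast sum is chiefly Col1a1.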

How the data were processed

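Whole-tumor RNA of 4 p53-driven and 5 Myc-knockin tumors was sequenced. The authors prepared libraries with a stranded total RNA kit after oligo-dT enrichment, ran Trim Galore on the reads, aligned to mm10 by STAR and tallied genes by featureCounts, and the deposited table holds these raw counts. Strand and multi-mapping settings are not given in the sources used here. The columns could be tied to groups but not to numbered samples. The study's supporting data list 6 column names by genotype, and M351, M9 and M664 were placed by the letter M. Only the columns of the 9 tumors were read for counts. The labels do not state that each tumor came from a separate mouse, so p values measure the spread between tumors.

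Groups were compared in R 4.3.3 with the quasi-likelihood test of edgeR 4.0.16, without covariates, after TMM normalization and filterByExpr (minimum count 10), which kept all 10 guidance genes, so the permutation test planned for genes below the filter was not needed. Adjusted p values are Benjamini-Hochberg over all 15365 genes tested, and calls needed a fold change over 1.5 at an adjusted p under 0.05. DESeq2 1.42.0, limma 3.58.1 (voom with quality weights) and other normalizations, filters and sets of libraries were alternatives. Genomic background was taken from counts per kilobase of exon on 1538 chemosensory receptor genes. The 12 genes called satellite-repeat genes were picked only for their high share in F187, M351, M408 and M9 against the other libraries. Scripts were tested on simulated data. Named genes were the 10, each other listed guidance gene that was called, Slit, Robo, Sema, Plxn and Nrp genes below the filter, markers that bear on a guidance gene, and Myc once. Rn7sk, Sema6a, Ntn1, Rgma, Plxnd1, Srgap2, Fes and, within the marker lists, single genes were named after their values were seen. The genes and lists were chosen with earlier results of these data known. Positions and exons came from GENCODE M21. Floors cover counting error only.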

Additional observations from a re-analysis of the deposited data

Results flagged for a closer look

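Nrp2 in M624 was at 62.0 CPM, whereas the other 4 Myc-knockin tumors lay between 332.8 and 434.6 CPM, a gap large for the group's range by Dixon's criterion. Of 24 groups of values examined in this way, this was the 1 result singled out, and chance alone singles out about 1 in 20. M624 was among the deepest libraries and had 1628 counts of Nrp2. It was also the lowest tumor for the summed osteoblast markers, at 2446 CPM. Leaving out M624 and M664 gave Nrp2 a log2 fold change of -2.21 (edgeR adjusted p = 0.0294).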

How the results depend on the processing

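No paired analysis was possible because the columns carry no replicate numbers. Each of the 10 guidance genes kept a log2 fold change below 0 under each alternative run. The number of the 10 that were called, 2 in the edgeR comparison, was 0 with library size alone, 1 (Nrp2) over all genes with at least 1 count, 1 (Nrp2) without M624 and M664, and 2 or 3 in the other 9 alternatives. It ranged from 0 to 3 with 1 tumor left out, and was 0 without F325, F331 or F368, where the whole table held 8, 6 and 5 calls. The number of other guidance genes called, 2 in the edgeR comparison, was 12 with DESeq2, 13 with limma-voom, 1 with upper-quartile normalization, 0 with library size alone, 1 over all genes with at least 1 count, 4 where every tumor had to reach 10 counts, 6 without M624 and M664, 16 without F187, M351, M408 and M9, and 0 to 4 with 1 tumor left out. The causes were not tested. Library size alone gave Nrp2 an adjusted p of 0.0701. Of 144 values for the 10 genes, Enah and Arhgef11 under other alternatives, 129 kept their side of the threshold, 11 lost the call, 4 gained it and 0 changed direction. With 1 tumor left out these were 87, 20, 1 and 0 of 108. Genes not called in the edgeR comparison mostly kept their side by staying uncalled, and removing the fold limit changed no value. The genes that were called there, Nrp2, Sema4d, Enah and Arhgef11, kept the call in 6, 3, 5 and 2 of the 9 fits with 1 tumor left out. Under the 12 other alternatives they kept it in 11, 8, 10 and 8. Depth limits M351 and M9 most, with 28 to 706 counts for each of the 10 genes.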
